A study of Mus musculus with 15 samples.

Results

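Nr2f1 and Nr2f2, the genes of the chicken ovalbumin upstream promoter transcription factors COUP-TFI and COUP-TFII, were followed on 15 Affymetrix arrays, which measured embryonic stem (ES) cells of the mouse and mesoderm made from them. These 2 genes, of 18193 with a probe set of a single gene symbol, were read by 7 of the 34945 such probe sets. Nr2f1 had 1 probe set and Nr2f2 had 6. For Nr2f2 the probe set was chosen by its mean signal over all 15 arrays, the highest of the 6, and the other 5 served as a check. The pair was chosen with earlier results of these arrays known, among them the lower Nr2f2 signal in CDL than in RDL medium at day 4. That difference and its change between days are therefore given without a test. Tests of Nr2f2 at day 4 over ES cells, and at day 6 over day 4, use the same day 4 arrays. They are thus not independent of that known difference.

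COUP-TFs are nuclear receptors with no settled natural ligand. They bind, as homodimers or with retinoid X receptors, to repeats of the hexamer AGGTCA, and at many genes they repress transcription, often against retinoic acid receptors. In mouse embryos Nr2f2 is known for its part in vein identity, heart atria and mesenchyme, and Nr2f1 for neural patterning and neural crest. Retinoic acid is known to raise the RNA of both genes in several embryonic cell types.

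The 5 groups held 3 arrays each, of samples that the labels call biological replicates, so the p-values below measure the spread between those samples. Cells of the CDL groups were differentiated without serum, with BMP4 (10 ng/ml) for 2 days, and then with 1 µM of the GSK3 inhibitor CHIRON99021, 0.5% DMSO and 0.1 µM of the BMP receptor inhibitor LDN193189, for which some sample labels give another LDN number than the protocol. Cells of the RDL groups received the Wnt agonist Rspo3 (10 ng/ml) in place of CHIRON99021. At day 4 both media held E14 cells (strain 129P2) sorted as positive for Msgn1-repV, a reporter of the presomitic gene Msgn1. At day 6 both held another line, CK35 (strain 129Sv), sorted for Pax3-GFP, a reporter of a gene of the somite and its dermomyotome. The ES group was E14 at day 0, not sorted, from serum medium with LIF, CHIRON99021 and the MEK inhibitor PD0325901, on feeder cells before a feeder-free passage. Day 6 thus differs from day 4 and from ES cells also in line, strain and reporter, and these cannot be told apart from time. Values are array signals in the deposited linear units, and array medians lay between 29.4 and 31.2. Precision is limited by the 3 arrays per group.

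The sorted cells carried the markers of their labels. Summed over the presomitic list, with 10 genes measured, the signal lay between 9048 and 11556 in CDL day 4 and between 9730 and 10537 in RDL day 4, against 266 to 309 in ES cells. Summed over 12 somite and dermomyotome genes it lay between 6946 and 10531 in CDL day 6 and between 5115 and 7793 in RDL day 6, against 478 to 515 in ES cells. A pair of arrays stood apart. CDL day 4 replicate 1 had a mean correlation over genes of 0.899 with the ES arrays, where its mates had 0.839 and 0.840, and its summed signal of 10 pluripotency genes was 13114, against 2960 and 2833 in its mates. The array least like its own group was RDL day 6 replicate 1, at a mean correlation of 0.978 with its mates. Results that change without either array are given with and without it.

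The sequences around the start sites of both genes are shown as a description, and their part in the signals was not tested. The windows shown are RefSeq promoters in GRCm38.p6, 250 bases before and 50 after an annotated start, both on the minus strand. Nr2f1 is at chr13:78198824-78199123 and Nr2f2 at chr7:70366697-70366996. Capitals mark the one match to CTTTGA, the core of the sites of TCF/LEF factors, which are known to act in Wnt signalling.
Nr2f1: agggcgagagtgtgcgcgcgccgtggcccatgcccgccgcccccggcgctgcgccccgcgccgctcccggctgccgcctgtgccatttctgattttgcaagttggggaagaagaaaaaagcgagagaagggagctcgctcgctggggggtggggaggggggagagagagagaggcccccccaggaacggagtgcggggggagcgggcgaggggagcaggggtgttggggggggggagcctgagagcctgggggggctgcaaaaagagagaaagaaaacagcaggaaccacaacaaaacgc
Nr2f2: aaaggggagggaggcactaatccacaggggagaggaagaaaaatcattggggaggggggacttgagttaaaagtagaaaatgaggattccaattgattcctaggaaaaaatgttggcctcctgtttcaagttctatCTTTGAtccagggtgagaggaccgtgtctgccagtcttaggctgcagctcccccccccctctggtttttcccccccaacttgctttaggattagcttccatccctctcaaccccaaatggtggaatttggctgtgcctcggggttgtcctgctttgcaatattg
The match in Nr2f2 starts 114 bases before the start site. CTTTGA, on either strand, occurred in 16.0% of 32851 promoters of this length, and AGGTCA, on either strand, in 16.3%. Neither was in the Nr2f1 window, and AGGTCA was not in the Nr2f2 window. The Nr2f1 window had a GC content of 68.0% and the Nr2f2 window 49.7%, beside a median of 52.7% over all promoters. RefSeq lists a second Nr2f1 start, at chr13:78196400-78196699, whose window had a GC content of 43.0% and held neither hexamer. Which start the cells used was not measured by the arrays.

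Nr2f1 was dim in ES cells and in CDL day 4 cells and bright at day 6. Its signals were 11.7, 9.4 and 13.6 in ES cells at day 0. In CDL day 4 cells they were 10.6, 12.3 and 11.3, and in RDL day 4 cells 41.3, 47.6 and 37.6. The ES and CDL day 4 ranges overlapped, and all 3 RDL day 4 arrays lay above both. In CDL day 6 cells the signals were 474.5, 582.6 and 599.7, and in RDL day 6 cells 1008.1, 1873.4 and 1793.8. All day 6 arrays lay above all others, and the 2 media did not overlap at day 6. The group means in order of level were 11.4 ± 0.869 in CDL day 4, 11.6 ± 2.11 in ES cells, 42.2 ± 5.06 in RDL day 4, 552 ± 67.9 in CDL day 6 and 1558 ± 478 in RDL day 6 (SD, n = 3 each). The first 2 of these did not differ beyond their spread. Within its array, Nr2f1 stood between the 15.6th and 27.1st percentile of probe sets in ES cells and between the 94.7th and 97.3rd in RDL day 6 cells.

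On its chosen probe set Nr2f2 differed between more of the groups, with ES, CDL day 4 and RDL day 4 cells each at a level of their own. Its signals were 26.7, 25.9 and 24.7 in ES cells. They were 64.0, 76.1 and 75.4 in CDL day 4 cells and 254.0, 291.5 and 215.5 in RDL day 4 cells. These 3 groups did not overlap on this probe set. In the other 5 the step from ES to CDL day 4 cells was smaller or reversed. In CDL day 6 cells the signals of the chosen probe set were 987.5, 1207.0 and 815.4, and in RDL day 6 cells 842.7, 1564.3 and 1286.5. The 2 media overlapped at day 6, with RDL day 6 replicate 1 below 2 of the CDL day 6 arrays. The means in order of level were 25.8 ± 1.00 in ES cells, 71.8 ± 6.78 in CDL day 4, 254 ± 38.0 in RDL day 4, 1003 ± 196 in CDL day 6 and 1231 ± 364 in RDL day 6 (SD, n = 3 each), and only the last 2 neighbours did not differ beyond their spread. In sorted bulk samples, fewer expressing cells and less RNA per cell cannot be told apart.

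**Figure D1:**
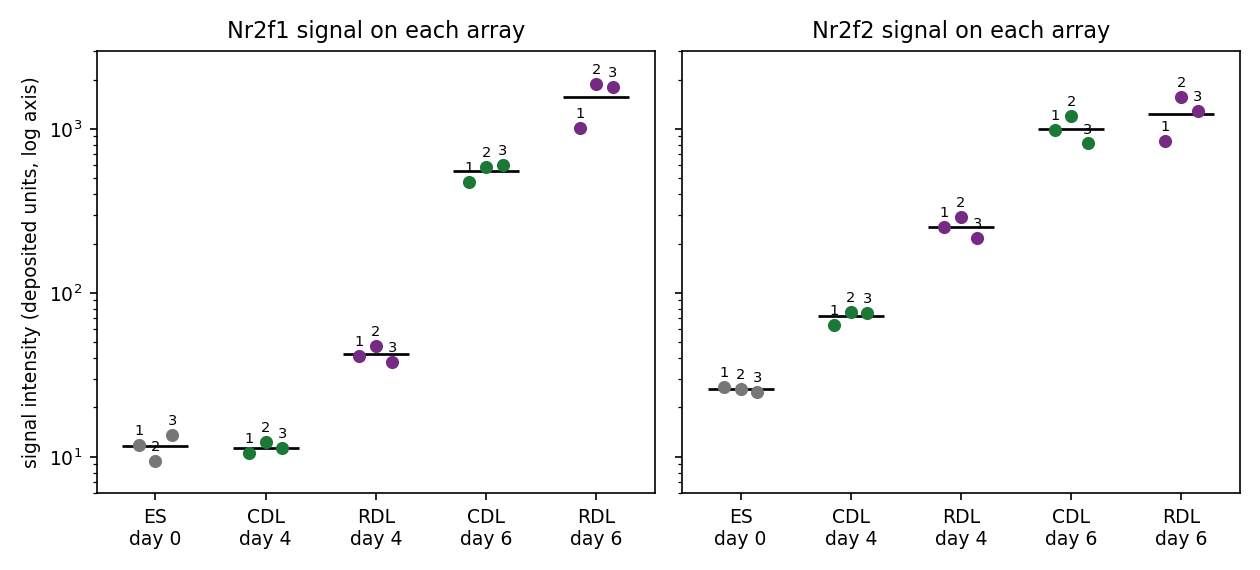
Signal of Nr2f1 (left) and Nr2f2 (right) on each array, in deposited units on a log axis, by group; numbers are replicates and lines are group means. Nr2f1 lies between 9.4 and 13.6 in both ES and CDL day 4 cells. The chosen Nr2f2 probe set steps up from ES to CDL day 4 to RDL day 4, and its 2 media overlap at day 6.

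To test these steps, group means of log2(signal + c), with c = 12.6, were compared with limma over 12400 genes, and a gene was called at a Benjamini-Hochberg adjusted p under 0.05. The constant shrinks differences of dim probe sets, so fold values below are on that scale. The comparisons with ES cells share the ES arrays.

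At day 4 only 1 of the pair was called in CDL cells and both in RDL cells, relative to ES cells. In CDL day 4 cells Nr2f2 was higher by 1.13 ± 0.19 on the log2 scale (SE, limma adjusted p = 9.11e-05), while Nr2f1 had a difference of -0.01 ± 0.18 with a 95% interval of -0.40 to 0.38. In that comparison 56.2% of all genes were called, and 12129 genes had a larger absolute difference than Nr2f1. In RDL day 4 cells Nr2f1 was higher by 1.18 ± 0.18 (limma adjusted p = 3.80e-05) and Nr2f2 by 2.78 ± 0.19 (limma adjusted p = 4.32e-09), where 57.1% of genes were called. Averaged over its 6 probe sets, the RDL difference of Nr2f2 was 0.91 (limma adjusted p = 9.98e-05), and 2 of the other 5 had a negative one. The call of Nr2f2 in CDL day 4 cells rested on the chosen probe set, since averaged over its 6 probe sets the difference was 0.21 and the limma adjusted p 0.260, the highest of 15 alternatives, which began at 2.93e-06. Without CDL day 4 replicate 1 it was 1.20.

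Both genes were lower in CDL than in RDL medium at day 4. Nr2f1 averaged 11.4 ± 0.869 in CDL and 42.2 ± 5.06 in RDL cells (SD, n = 3 each), a difference of -1.19 ± 0.18 on the log2 scale (SE, limma adjusted p = 0.000945). Nr2f2 averaged 71.8 ± 6.78 in CDL and 254 ± 38.0 in RDL cells, a difference of -1.65 ± 0.19. Of all genes 4.41% were called, and 66 had a larger absolute difference than Nr2f1. With 50 added in place of c, the difference of Nr2f1 was -0.59 and its limma adjusted p 0.0594, against 2.66e-05 to 0.0594 over 15 alternatives. Averaged over its 6 probe sets, the difference of Nr2f2 was -0.70. Without CDL day 4 replicate 1 the differences were -1.17 for Nr2f1 and -1.58 for Nr2f2.

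Most tested somite and intermediate mesoderm markers were lower in CDL at day 4 as well, read against the 4.41% of all genes called. In the somite list 9 of 12 tested genes were lower in CDL and 0 higher, and its summed signal was 1266 to 1920 in CDL and 3588 to 3919 in RDL cells. The 3 tested intermediate mesoderm genes were all lower in CDL, Lhx1 at -1.01, Emx2 at -0.87 and Osr1 at -0.60, and the sum over that list was 416 to 512 in CDL and 797 to 1007 in RDL cells. Of 7 tested lateral plate genes 2 were lower, Gata6 at -0.52 and Osr1 again, with sums of 381 to 438 in CDL and 445 to 500 in RDL cells. Of the 10 presomitic genes 2 were higher and 1 lower, and of 7 endoderm genes 1 was higher. The endothelial list had 0 calls by limma and 0 at an unadjusted p under 0.05. The pluripotency, neural tube, neural crest and fibroblast lists had 0 calls by limma too, where at an unadjusted p under 0.05 each had 1 gene higher, the neural crest list 2 lower and the fibroblast list 3 lower. The share of all genes at that unadjusted threshold is not given here. Without both arrays that stood apart, 634 of 12400 genes were called, against 547 with all arrays. There 10 of the 12 somite genes and the same 3 intermediate mesoderm genes were lower. So was 1 neural crest gene (Ngfr), and 1 fibroblast gene (Col1a2) was higher. The part of these lists in the COUP differences was not tested.

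Both genes were higher at day 6 than at day 4 in each medium. In CDL medium Nr2f1 was higher at day 6 than at day 4 by 4.55 ± 0.18 on the log2 scale (SE, limma adjusted p = 2.10e-11), or 23.5-fold, and in RDL medium by 4.79 ± 0.18 (limma adjusted p = 1.09e-11), or 27.7-fold. Of the 12400 genes, 11 in CDL and 3 in RDL had a larger absolute difference than Nr2f1. Nr2f2 was higher at day 6 by 3.57 ± 0.19 in CDL (limma adjusted p = 5.84e-10), or 11.9-fold, and by 2.19 ± 0.19 in RDL (limma adjusted p = 2.39e-07), or 4.56-fold. Both members were called in both media, where 39.4% of genes were called in CDL and 31.0% in RDL. The sizes depended on the constant and the probe sets: over 15 alternatives the Nr2f1 difference was 3.29 to 5.48 in CDL and 4.08 to 5.13 in RDL, lowest with 50 added and highest with 1. That of Nr2f2 was 1.96 to 3.77 in CDL and 1.42 to 2.44 in RDL, lowest as the mean of the probe sets. Against ES cells, the day 6 difference was 4.54 ± 0.18 for Nr2f1 and 4.71 ± 0.19 for Nr2f2 in CDL, and 5.97 ± 0.18 and 4.97 ± 0.19 in RDL. Both were called in each medium (limma adjusted p between 3.80e-13 and 9.17e-12), beside 61.0% of genes in CDL and 61.6% in RDL. Over 15 alternatives these ran for Nr2f1 between 3.28 and 5.46 in CDL and between 4.66 and 6.91 in RDL, and for Nr2f2 between 2.17 and 5.21 in CDL and between 2.33 and 5.48 in RDL.

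At day 6 Nr2f1 was lower in CDL than in RDL medium, and Nr2f2 did not pass the test. Nr2f1 averaged 552 ± 67.9 in CDL and 1558 ± 478 in RDL cells (SD, n = 3 each), and its difference of -1.43 ± 0.18 was called (SE, limma adjusted p = 8.91e-05), a ratio of 0.371. Nr2f2 averaged 1003 ± 196 in CDL and 1231 ± 364 in RDL cells, and its difference of -0.26 ± 0.19, with a 95% interval of -0.67 to 0.14, was not (limma adjusted p = 0.516). Of all genes 7.61% were called, and 73 had a larger absolute difference than Nr2f1. RDL day 6 replicate 1 decided the call of Nr2f2: without it the difference was -0.51 and the limma adjusted p 0.0436, against 0.0314 to 0.920 over 15 alternatives. Without that array 1513 of 12400 genes were called, against 944 with all arrays. That array had the lowest RDL day 6 signal of both members and of the somite sum, 5115. Without it the Nr2f1 difference was -1.72.

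The change of the medium difference between days was fitted as an interaction, the day 6 difference minus the day 4 difference. For Nr2f1 it was -0.24 ± 0.26 on the log2 scale (SE, 95% interval -0.79 to 0.31, limma adjusted p = 0.730). Over 21 alternatives it lay between -0.79 and 0.35, the latter with 1 added in place of c, so it has no settled direction. Without RDL day 6 replicate 1 it was -0.53 (limma adjusted p = 0.0516, against 0.0516 to 0.939 over the alternatives). That fit called 1216 of 12400 genes, against 668 with all arrays, or 5.39%. For Nr2f2 it was 1.39, most of it the day 4 difference already known when the pair was chosen, so no test is given. Averaged over its 6 probe sets the Nr2f2 value was 0.54, and without RDL day 6 replicate 1 it was 1.14. In the somite list 9 of 12 genes had a positive interaction past the threshold and 0 a negative one.

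**Figure D2:**
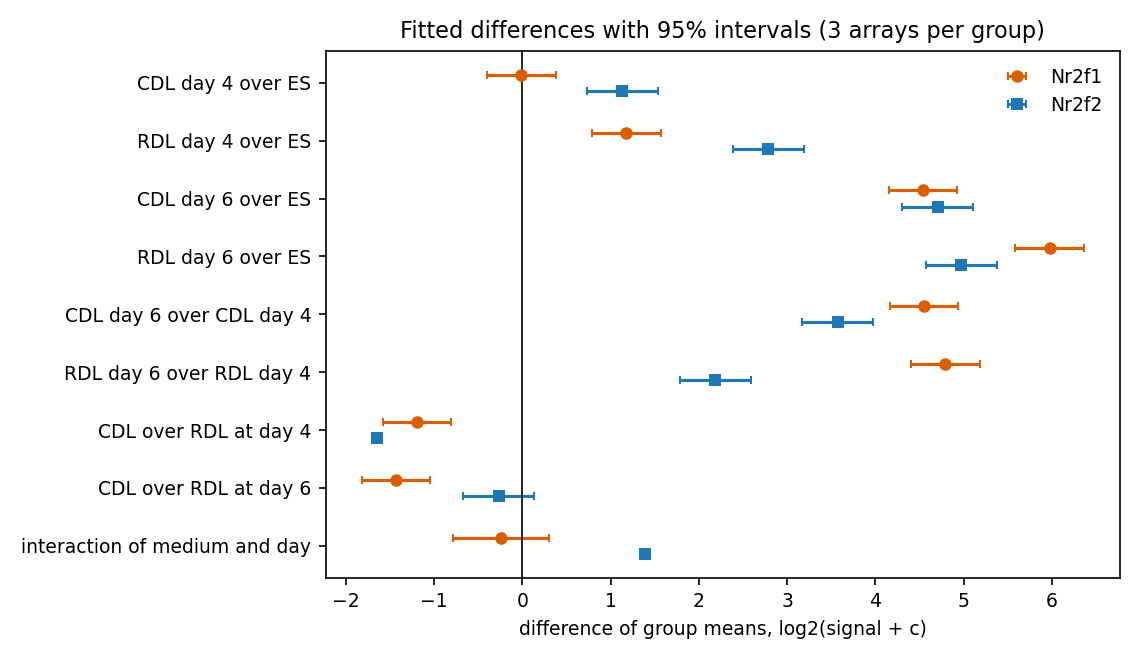
Fitted differences of Nr2f1 (circles) and Nr2f2 (squares) in log2(signal + c), with 95% intervals, for the 9 comparisons from 3 arrays per group; the Nr2f2 medium difference at day 4 and its interaction are drawn without an interval, as no test is given for them. Nr2f1 is near 0 in CDL day 4 over ES at -0.01, and the medium difference at day 6 is -1.43 for Nr2f1 and -0.26 for Nr2f2.

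Within an array, the log2 ratio of the Nr2f1 to the Nr2f2 probe set was taken with c added to each signal. What scales both signals alike is then not fully removed, least of all where a signal is near c. The size of this ratio has no meaning across probe sets, so only its shift between groups is read. The shifts are given as a description, without a test. The ratio was -1.04, -1.03 and -0.44 in CDL day 6 cells, against 0.26, 0.26 and 0.48 in RDL day 6 cells. The groups did not overlap, with means of -0.84 ± 0.35 and 0.33 ± 0.13 (SD, n = 3 each) and a difference of -1.17. Over 9 alternatives the difference lay between -1.37 and -1.06. At day 4 the difference in this ratio was 0.46, but it was 0.00 with 1 added in place of c, 0.73 with 50 added and -0.49 from the mean of the probe sets, so it has no settled direction.

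The other 5 Nr2f2 probe sets were dimmer, with means over all arrays of 80.6, 70.8, 55.3, 29.1 and 27.5 beside 517 for the chosen one. In probe set 1416158_at the CDL day 4 signals were 11.6, 9.7 and 14.1 and the RDL day 4 signals 33.5, 55.2 and 35.1. The CDL day 6 signals there were 148.1, 168.2 and 141.6, and the RDL day 6 signals 90.9, 258.9 and 216.9. As in the chosen probe set, the media were apart at day 4 and overlapped at day 6, and RDL replicate 1 was the lowest of the RDL arrays there. The group means of the 4 brightest of the 6 probe sets shared the order ES, CDL day 4, RDL day 4, CDL day 6 and RDL day 6. The log2 difference of CDL day 4 over ES cells was 1.13 in the chosen one. It was 0.20 in 1416158_at, 0.13 in 1436475_at and 0.18 in 1416160_at. In 1436475_at the ES and CDL day 4 signals overlapped, and in all 4 the media overlapped at day 6. In the others, 1431237_at and 1444229_at, ES cells stood above both day 4 groups, and their highest group mean was 1.25 and 2.99 times the lowest. All 5 had a negative CDL over RDL difference at day 4, from -1.12 to -0.00, and at day 6, from -0.25 to -0.05.

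**Figure D3:**
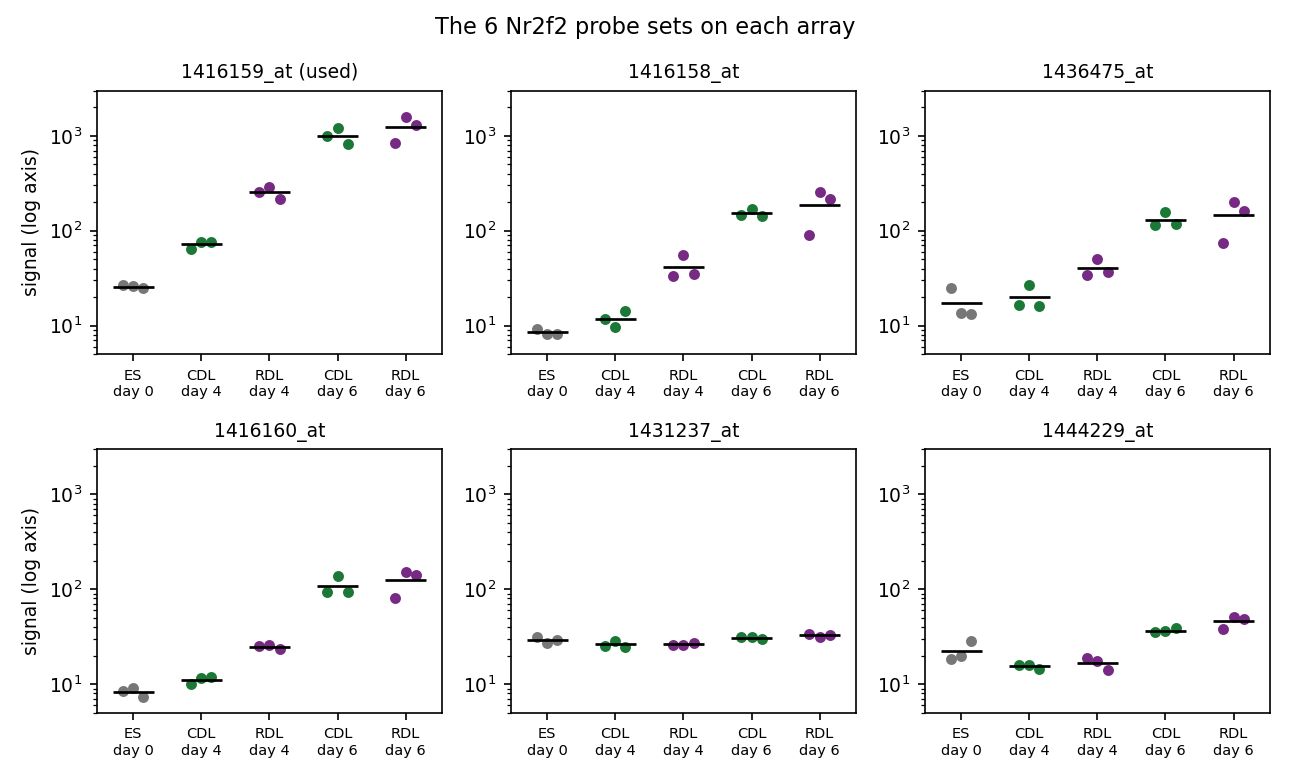
Signal of each of the 6 Nr2f2 probe sets on each array, on a shared log axis, by group; lines are group means and the probe set used is named. In 4 of them the signal climbs from ES cells to day 6, and 1431237_at stays between 24.9 and 34.0 on all arrays.

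The genes with the most similar profiles were found by the root mean square (RMS) difference of centred log2 values over the 15 arrays, which share libraries and groups, so no test is given. For Nr2f1, among 11935 ranked genes, they were the somite homeobox gene Meox2 (RMS 0.56), the chemokine gene Cxcl12 (0.57), the semaphorin and VEGF co-receptor Nrp1 (0.57), the forkhead gene Foxd1 (0.63) and the collagen gene Col9a1 (0.65). Meox2 averaged 6.38 ± 0.797 in CDL day 4 and 9.96 ± 1.04 in RDL day 4 cells, and 367 ± 108 in CDL day 6 and 611 ± 87.9 in RDL day 6 cells (SD, n = 3 each). Col9a1 averaged 277 ± 52.4 in CDL day 6 and 1063 ± 82.7 in RDL day 6 cells. Foxd1 had the opposite order, with 1317 ± 267 in CDL day 6 and 1126 ± 383 in RDL day 6 cells, and Cxcl12 averaged 1772 ± 604 in CDL day 6 and 1984 ± 512 in RDL day 6 cells, differences smaller than their spread. Of the 5 genes 4 had, like Nr2f1, their highest group mean in RDL day 6 cells. The choice by profile on these same arrays favours such a match.

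For Nr2f2 they were the imprinted gene Mest (RMS 0.42), the somite homeobox gene Meox1 (0.43), the secreted serpin gene Serpinf1 (0.48), the fibrillin gene Fbn2 (0.54) and the collagen gene Col26a1 (0.56). Mest averaged 4569 ± 318 in CDL day 6 and 6183 ± 556 in RDL day 6 cells. Meox1 averaged 97.2 ± 10.8 in CDL day 4 and 581 ± 104 in RDL day 4 cells, and 2063 ± 472 in CDL day 6 and 1827 ± 191 in RDL day 6 cells. At day 6 Serpinf1 averaged 928 ± 101 in CDL and 835 ± 136 in RDL cells, and Fbn2 2077 ± 377 and 1456 ± 484. Col26a1 averaged 592 ± 124 and 530 ± 159 there (SD, n = 3 each). Of the 5 genes only Mest had, like Nr2f2, its highest group mean in RDL day 6 cells. Nr2f2 stood 16th among the genes ranked for Nr2f1, and Nr2f1 stood 56th for Nr2f2, at an RMS of 0.93. Over the 12 sorted arrays alone, 3 of the 5 genes came back for each.

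**Figure D4:**
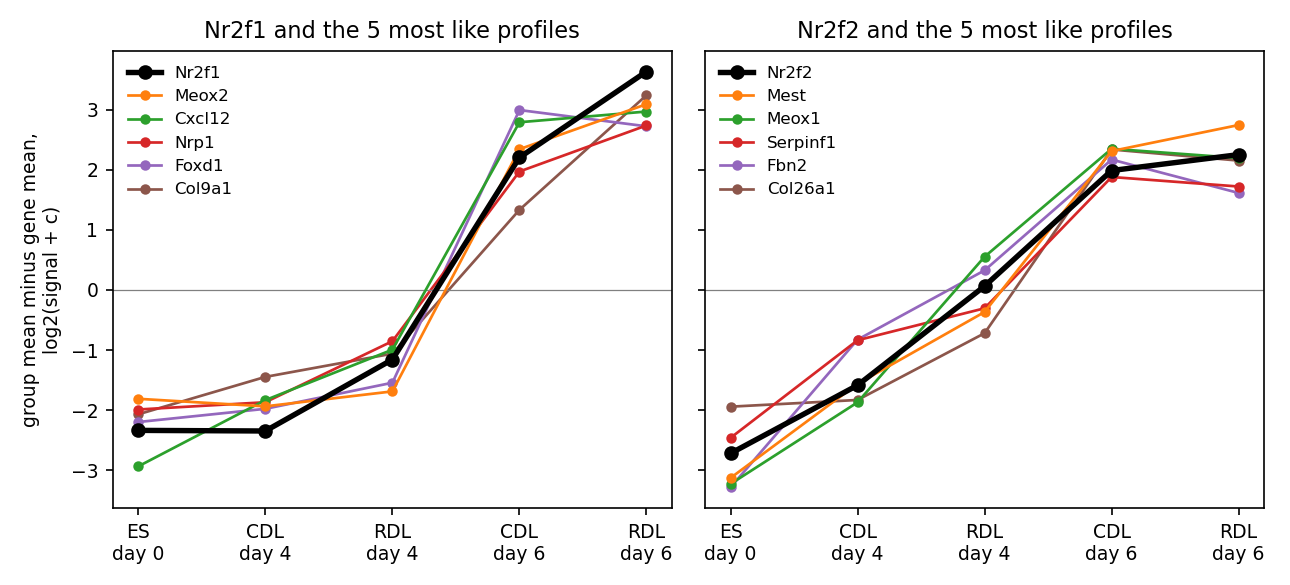
Group means minus the gene's own mean over 15 arrays, in log2(signal + c), for Nr2f1 (left) and Nr2f2 (right) in black and the 5 genes of most similar profile in colour; lines join the groups only to guide the eye. The Nr2f1 set turns up mainly at day 6, and the Nr2f2 set is already higher in RDL day 4 than in ES cells. Both sets were chosen for likeness to their member, so a shared shape follows from the choice.

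Among the relatives, Nr2f6, the third COUP-type receptor, was also higher at day 4 than in ES cells. It averaged 411 ± 91.7 in CDL day 6 and 372 ± 78.1 in RDL day 6 cells, and 294 ± 38.5 in CDL day 4 and 294 ± 5.47 in RDL day 4 cells, against 138 ± 20.1 in ES cells (SD, n = 3 each). Its rise over ES cells at day 4 was 1.02 ± 0.17 in CDL and 1.03 ± 0.17 in RDL (SE, limma adjusted p = 8.31e-05 and 6.92e-05). Nr2c1, the testicular receptor TR2, rose by 0.88 and 0.92 there. In the rest of the Nr2 subfamily, which also holds the retinoid X receptors, 2 of 7 tested genes were called at day 4 over ES cells in each medium, a smaller share than the 56.2% of all genes in CDL and 57.1% in RDL. Between media 0 of the 7 were called at either day by limma, nor at an unadjusted p under 0.05, beside 4.41% of all genes at day 4 and 7.61% at day 6. Without both arrays that stood apart, 2 of the 7 rose and 2 (Hnf4a and Rxra) fell in CDL day 4, and 3 rose in RDL day 4. That fit called 7499 of 12400 genes in CDL day 4 over ES cells and 7710 in RDL, against 6967 and 7079 with all arrays. Between media at day 6 Rxrb was lower in CDL there, where 1776 genes were called, against 944 with all arrays. The median difference of the list over ES cells was 0.12 in CDL and 0.10 in RDL, beside -0.02 and -0.01 over all genes.

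Among 9 tested orphan receptors of ES cells and epiblast, 3 fell at day 4. Esrrb, Nr0b1 and Nr5a2, of the ES cell network, were lower than in ES cells, with log2 differences of -4.58, -4.49 and -4.24 in CDL and -5.69, -5.67 and -5.30 in RDL. Esrrb was at 77.5 ± 120 in CDL day 4 and 8.95 ± 0.635 in RDL day 4 cells, against 1100 ± 109 in ES cells (SD, n = 3 each), the wide spread coming from CDL replicate 1 at 216. Nr6a1, the germ cell nuclear factor, which represses pluripotency genes, rose at day 4 by 1.77 in CDL and 1.59 in RDL and was lower at day 6 than at day 4, at -1.07 in CDL and -1.10 in RDL. In this list 1 rose and 3 fell in CDL day 4, and 2 rose and 3 fell in RDL day 4, relative to ES cells, beside the 56.2% and 57.1% of all genes called. Esrra, Nr1d1, Nr4a1 and Nr4a2 were not called in either. The median difference was 0.05 in CDL and -0.11 in RDL, beside -0.02 and -0.01 over all genes. Between media 0 of the 9 were called at day 4 by limma (1 at an unadjusted p under 0.05), beside 4.41% of all genes called. At day 6 the clock gene Nr1d2 was higher in CDL, at 0.79, where 7.61% of all genes were called.

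Of the retinoic acid pathway, 11 genes were tested. Relative to ES cells 6 rose and 2 fell in CDL day 4, and 7 rose and 1 fell in RDL day 4, with medians of 1.41 and 1.66 beside -0.02 and -0.01 over all genes, of which 56.2% and 57.1% were called. Aldh1a2, which makes retinoic acid, averaged 1452 ± 194 in CDL day 4 and 1974 ± 93.5 in RDL day 4 cells, against 39.0 ± 8.54 in ES cells (SD, n = 3 each). Rarb, a receptor gene that retinoic acid itself is known to induce, averaged 25.5 ± 11.8 in CDL day 4 and 74.6 ± 18.5 in RDL day 4 cells, a difference of -1.22 ± 0.18 (SE, limma adjusted p = 0.000782). The retinoic acid hydroxylase gene Cyp26a1 and the retinaldehyde reductase gene Dhrs3 were also lower in CDL at day 4, at -0.86 and -0.46, and 0 of the 11 were higher, with a list median of -0.13, where 4.41% of all genes were called. Without both arrays that stood apart, Cyp26a1 and Rarb were called at day 4 and Dhrs3 was not. In that fit 634 of 12400 genes were called, against 547 with all arrays.

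At day 6, 4 of the 11 were higher and 2 lower in CDL than in RDL, with a list median of 0.11 beside 0.00 over all genes, of which 7.61% were called. Aldh1a2 averaged 1120 ± 98.7 in CDL and 284 ± 63.5 in RDL cells (SD, n = 3 each), a difference of 1.95 ± 0.16 (SE, limma adjusted p = 7.83e-07). The retinoic acid binding protein gene Crabp1 (1.38), the retinol uptake receptor gene Stra6 (0.74) and Dhrs3 (0.60) were higher in CDL too. Cyp26a1 averaged 200 ± 12.9 in CDL and 697 ± 132 in RDL cells, a difference of -1.72 ± 0.14 (SE, limma adjusted p = 7.05e-07), and Crabp2 was lower, at -0.89. Rarb, at 121 ± 13.1 in CDL and 168 ± 9.60 in RDL cells, was not called at day 6.

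Among 13 tested cofactors of COUP-TFs, 0 were called between media at day 4 by limma, beside 4.41% of all genes. There 4 were higher at an unadjusted p under 0.05, for which the share of all genes is not given here. At day 6 the call was Zfpm2 alone, beside 7.61% of all genes. Without both arrays that stood apart the calls were Bcl11a and Zfpm2, where 1776 of 12400 genes were called, against 944 with all arrays. Zfpm2, or FOG2, which binds COUP-TFII in heart cells, averaged 73.5 ± 9.84 in CDL day 6 and 34.6 ± 7.52 in RDL day 6 cells (SD, n = 3 each), a difference of 0.87 ± 0.13 (SE, limma adjusted p = 0.000326). Its paralog Zfpm1, or FOG1, averaged 147 ± 7.54 in CDL day 4 and 107 ± 17.6 in RDL day 4 cells, against 28.4 ± 4.03 in ES cells, and at day 6 it was lower than at day 4, with log2 differences of -2.06 in CDL and -1.61 in RDL. The nuclear receptor coactivators Ncoa1 and Ncoa3 and the coregulator Trim24 fell at day 4 relative to ES cells, with log2 differences of -1.19, -1.48 and -0.94 in CDL and -1.69, -1.55 and -1.23 in RDL. In all, 4 of the 13 rose and 6 fell in CDL day 4, and 4 rose and 7 fell in RDL day 4, with medians of -0.23 and -0.46. Over all genes 56.2% and 57.1% were called, with medians of -0.02 and -0.01.

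Of 18 tested genes that the literature describes downstream of COUP-TFs, in various tissues and species, 2 were higher and 5 lower in CDL than in RDL at day 6, with a median of 0.01, where 7.61% of all genes were called. Angpt1, a ligand of the receptor Tek, averaged 70.6 ± 25.9 in CDL day 6 and 228 ± 66.8 in RDL day 6 cells (SD, n = 3 each), a difference of -1.55 ± 0.22 (SE, limma adjusted p = 0.000265). Nrp1 averaged 599 ± 42.9 in CDL and 1047 ± 239 in RDL cells, a difference of -0.77 ± 0.22 (SE, limma adjusted p = 0.0412). Otx2, a forebrain homeobox gene, averaged 17.0 ± 0.948 in CDL and 192 ± 21.3 in RDL cells, a difference of -2.79 ± 0.24 (SE, limma adjusted p = 1.73e-06). The cartilage factor gene Sox9 (-1.27) and Cyp26a1 (-1.72), which is in this list too, were also lower.

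The Notch effector genes Hey1 and Hey2, which Nr2f2 is known to repress in mouse vein endothelium, were higher in CDL day 6 by 1.26 and 0.64. Hey1 averaged 304 ± 50.2 in CDL day 6 and 119 ± 6.63 in RDL day 6 cells, and 110 ± 25.2 in CDL day 4 and 215 ± 69.7 in RDL day 4 cells (SD, n = 3 each). At day 4 it was lower in CDL, at -0.87 (limma adjusted p = 0.0149), and its interaction of medium and day was 2.13 ± 0.27 (SE, limma adjusted p = 0.000159). A link of Hey1 or Hey2 to Nr2f2 in these cells was not tested. At day 4, 2 of the 18 (the cyclin gene Ccnd1 and the pluripotency gene Pou5f1) were higher and 3 (Nrp1, Hey1 and Cyp26a1) lower in CDL. The list median was -0.03, and 4.41% of all genes were called. The same 5 of the 18 were called without both arrays that stood apart. In that fit 634 of 12400 genes were called, against 547 with all arrays. Of the Tbx1 and outflow tract list only Isl1 and Mef2c, 2 of 7 genes, were bright enough to test. Mef2c was lower in CDL than in RDL at day 6, at -0.75, where 7.61% of all genes were called.

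**Figure D5:**
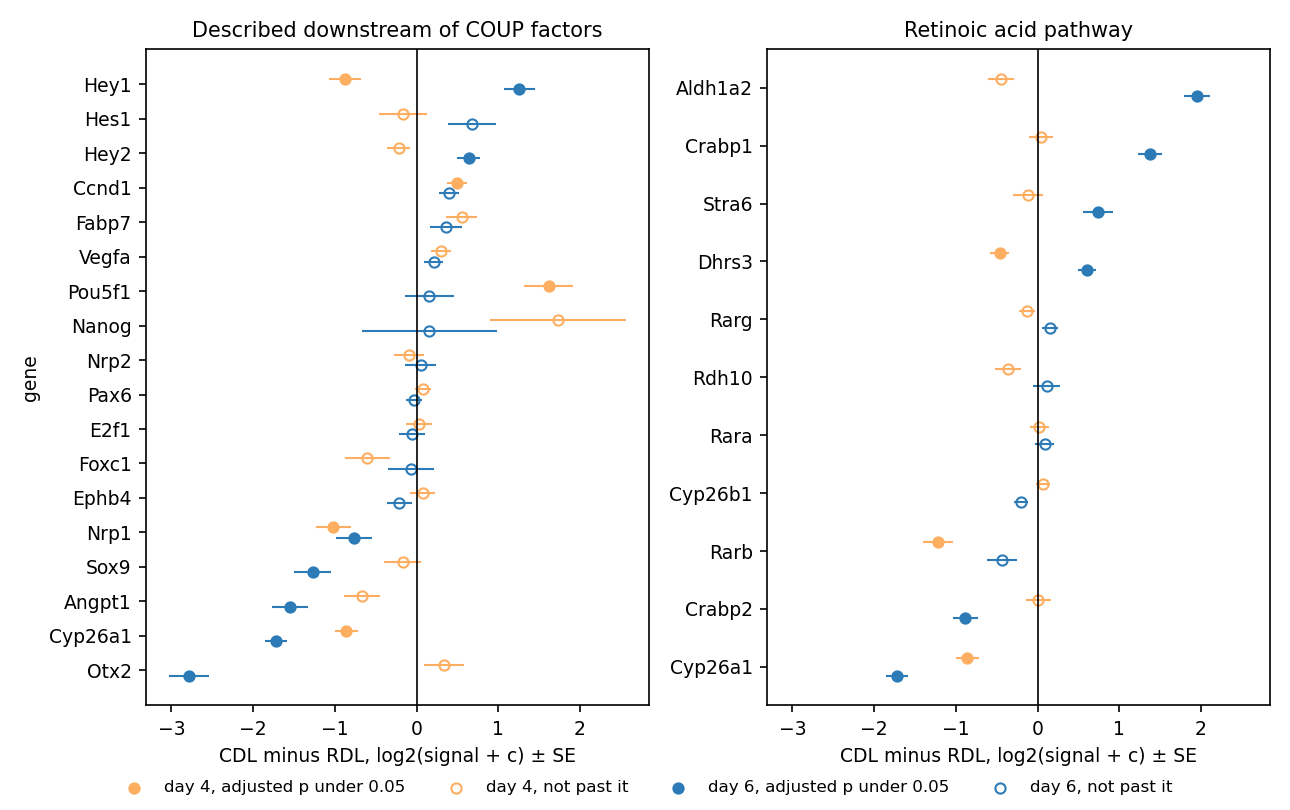
CDL minus RDL in log2(signal + c) with its SE, at day 4 (orange) and day 6 (blue), for 18 genes described downstream of COUP-TFs (left) and 11 retinoic acid pathway genes (right); filled points passed an adjusted p of 0.05 in limma. Hey1 and Dhrs3 lie on opposite sides of 0 on the 2 days, and Cyp26a1 lies below 0 on both.

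At day 6 the called endothelial, fibroblast and neural crest markers were mostly lower in CDL, as was Nr2f1, while called presomitic ones were higher. In this comparison 7.61% of all genes were called. Of 7 tested endothelial genes 5 were lower in CDL and 0 higher, and the signal summed over the list of 10 was 259 to 289 in CDL day 6 and 466 to 536 in RDL day 6 cells, against 385 to 421 in ES cells. Kdr, Flt1, Sox17 and Etv2 stood above the array median on all 3 RDL day 6 arrays, and Kdr and Etv2 on all 3 CDL day 6 arrays. On all 3 ES arrays Pecam1, Kdr, Tek and Etv2 did. In RDL day 6 over ES cells, Kdr (1.20), Flt1 (1.05), Emcn (1.37) and Sox17 (2.08) were higher. Pecam1 (-1.97), Tek (-1.31) and Etv2 (-0.55) were lower there, where 61.6% of all genes were called. Of 9 tested fibroblast genes 4 were lower and 0 higher, with sums of 8542 to 9282 in CDL and 12102 to 13058 in RDL cells. Of 8 tested neural crest genes 3 were lower and 1 higher, with sums of 1190 to 1444 in CDL and 1471 to 2182 in RDL cells. Of the 12 somite genes 4 were higher and 2 lower in CDL. Of the presomitic list 4 of 10 were higher and 0 lower, of the pluripotency list 1 of 10 was higher, of the neural tube list 1 of 8 was higher, and 2 of 7 lateral plate, 1 of 3 intermediate mesoderm and 1 of 7 endoderm genes were lower. Without both arrays that stood apart, 1776 of 12400 genes were called, against 944 with all arrays. There the same 5 endothelial genes were called. Of the fibroblast genes 5 were lower and 1 higher, and of the neural crest genes 4 were lower and 1 higher. The part of these lists in the Nr2f1 difference was not tested.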

How the data were processed

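RNA of 15 samples was labelled in 2 cycles and hybridised to Affymetrix arrays, per the labels' protocols. The deposited value of each probe set is 1 linear signal intensity, made with MAS5 per the submitters' processing notes. Its version and the genome build behind the annotation are not given in the sources used here. Probe sets were named from the platform's annotation: of 45101, 64 were controls, and of the rest 34945 had 1 symbol, 932 several and 9160 none. Promoters came from RefSeq (GRCm38.p6).

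Before log2, c = 12.6 was added, which is the median of the arrays' 25th percentiles. Probe sets above their array's median on at least 3 of 15 arrays were kept, the brightest of a gene was used, and 12400 of 18193 genes were tested; both members passed, Nr2f1 on 9 arrays and Nr2f2 on 12. All 5 groups were fitted with limma 3.58.1 (lmFit, eBayes with a trend) in R 4.3.3, with Benjamini-Hochberg adjustment over all genes tested, and the fit was tested on simulated data. Figures used matplotlib 3.10.9 in Python 3.11.15.

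The members, the lists (the rest of the Nr2 subfamily, orphan receptors, retinoic acid pathway, COUP cofactors, genes described downstream, Tbx1 and outflow partners, and cell type markers) and the tests were chosen with earlier results of these data known. Named besides the members were the 5 genes of most similar profile to each, passing over predicted genes, and of each list the called members with the largest differences. Alternatives were other constants, no filter, quantile normalization, other probe sets, fits on the groups compared alone, a replicate block and each array left out. Residuals of arrays with the same replicate number correlated at 0.219 to 0.285 between RDL day 6 and RDL day 4 and at 0.106 to 0.275 between CDL day 6 and RDL day 4, but in the other 8 pairs of groups at least 1 number did not pass 0.1.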

Additional observations from a re-analysis of the deposited data

How the results depend on the processing

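Over 246 alternative fits of the 16 member differences that were tested, 238 kept the direction and the side of the limma threshold. As the mean of the probe sets, Nr2f2 lost its call in CDL day 4 over ES cells (0.21, adjusted p = 0.260 in limma), and its interaction, given without a test, was 0.54. Rises to day 6 and over ES cells kept their calls and moved in size with the constant and the probe sets, as given beside them. With 50 added, Nr2f1 lost its call between media at day 4 (-0.59). Leaving out 1 array gave Nr2f2 values of -0.51 to -0.071 between media at day 6, and leaving out both arrays that stood apart, a choice made after seeing the data, gave -0.51 (adjusted p = 0.0314 in limma). Differences near 0 changed sign: Nr2f1 in CDL day 4 over ES cells lay between -0.076 and 0.050 with 1 array left out and was 0.014 without both arrays, and its interaction was 0.35 with 1 added. The day 4 shift of the Nr2f1 to Nr2f2 ratio was -0.49 from the mean of the probe sets. The cause of these changes was not tested.

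With the replicate block 0 of the 16 calls changed, for example -0.26 for Nr2f2 between media at day 6 (adjusted p = 0.391 in limma). Among all genes, calls between media at day 4 numbered 547, but 353 without RDL day 4 replicate 1 and 341 without RDL day 4 replicate 2. At day 6 they numbered 944, but 442 from the compared groups alone, 1513 without RDL day 6 replicate 1 and 1776 without both arrays. Interaction calls numbered 668, but 1216 without RDL day 6 replicate 1 and 1237 without both. By Pearson correlation 1 of the 5 genes most like Nr2f1 and 3 of those like Nr2f2 came back. Signals of Nr2f1 in ES and CDL day 4 cells lie at or below percentile 27.1 of their arrays, which limits what can be seen there.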
